A study of Homo sapiens with 3 samples.

Results

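Subtelomeric origins of the autosomes are replication origins called in the outermost 2 Mb of chromosomes 1 to 22. They were chosen by position alone: a call belonged to an end when its start lay within 2 Mb of the last position called on that chromosome in any list, or of the first. The first called position was not used on chromosomes 13, 14, 15, 21 and 22. Their short arms carry repeated sequence, and their first calls lie beside the centromere gap. So 39 ends were taken, 22 of long arms (q) and 17 of short arms (p). They spanned 78 Mb of the 2725 Mb of autosomal span with calls, or 2.86%. The unit was the common region, a diffuse region called with EPIC2 that held at least 1 narrow summit called with MACS2 in the same replicate. The ends held 4907 of 101129 autosomal common regions in replicate 1, 1810 of 25104 in replicate 2 and 2583 of 56487 in replicate 3. Over the 3 replicates these made up 5.09% of common regions, while the ends took 5.26% of EPIC2 regions and 4.14% of summits.

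All libraries came from untreated HCT116, an established human colorectal cancer line grown in RPMI medium, and formed 1 group of 3 replicates, so zones of the genome were compared within each replicate. The assay was short nascent strand sequencing (SNS-seq), which purifies short RNA-primed DNA made at newly fired origins, using lambda exonuclease to remove DNA without an RNA primer. The replicates were triplicate experiments, and the study describes its experiments in general as independent repeats on cultures grown in parallel, without naming the culture of each library. The sign-flip permutation test used below gives p = 0.25 whenever all 3 values have the same sign, whatever their spread. Its p-values thus tell mainly whether the replicates agree in direction. The spread between replicates is given as an SD and may be in part technical. The lists give called positions without read numbers, so depth is unknown, and they carry no expression values against which the cell line could be checked.

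An origin is a place where the replication machinery is loaded in G1 phase and the double helix is opened in S phase. Subtelomeres lie between the telomere repeats that cap a chromosome and its unique sequence. They contain segments copied between chromosomes, and many human chromosome ends are rich in genes and in G and C bases. Reads from copied segments cannot always be placed, so the outermost called position is where calling ended, not the end of the chromosome. It was set by a summit at 25 ends and by an EPIC2 region at 14. At 34 ends each bin of 100 kb in the 2 Mb held a call, and the longest total without a call was 600 kb, at 1p. The median distance from the outermost call to the first common region was 8971, 36400 and 46629 bases in replicates 1, 2 and 3. Positions are given in hg19, the build of the files, and no sequence or gene annotation of that build was used here, so regions are named by end and position.

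Common regions were denser in the chromosome ends than farther in. The ends held 62.9 common regions per Mb in replicate 1, 23.2 in replicate 2 and 33.1 in replicate 3, against 50.8, 15.6 and 26.8 per Mb in the zones 2 to 10 Mb inward of the same ends. The end was the denser zone in each replicate, although the levels of the zones overlapped across replicates because the lists differed in size. The ratio of end to inward density was 1.24, 1.49 and 1.24, a mean of 1.32 ± 0.142 (SD, n = 3), with an exact sign-flip permutation p of 0.25, two-sided. With 3 replicates that is the smallest p this test can give. Counting all EPIC2 regions gave a mean ratio of 1.29 ± 0.0863, and counting summits gave 1.23 ± 0.148. Without chromosomes 8, 10, 16 and 17, parts of which are known to be gained in HCT116, the ratio was 1.40. Copy number was not measured in these lists.

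Against their own chromosomes the ends stood out further. Windows of 1 Mb with a call, on the same chromosomes weighted by their number of ends, held 41.1, 10.7 and 22.9 common regions per Mb in replicates 1, 2 and 3. The end exceeded the whole chromosome 1.53-fold, 2.16-fold and 1.44-fold, a mean of 1.71 ± 0.392 (SD, n = 3; exact sign-flip permutation p = 0.25, two-sided). Replicate 2, which had the shortest list, had the highest ratio in both comparisons. The q ends held 64.8, 24.6 and 34.3 common regions per Mb and p ends 60.5, 21.4 and 31.6. Both were above their inward zones in every replicate, where q arms held 53.3, 17.6 and 28.6 and p arms 47.5, 13.1 and 24.3 per Mb. On the 17 chromosomes with both ends, the q end was denser in every replicate on 7 and the p end on 6.

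The density did not climb to the very tip. In the outermost 0.25 Mb it was 54.2, 18.6 and 24.1 common regions per Mb in replicates 1, 2 and 3. It was highest at 0.5 to 1 Mb in replicate 1 (67.7), at 1 to 1.5 Mb in replicate 2 (25.3) and at 0.25 to 0.5 Mb in replicate 3 (37.6). Density was lower farther in, though not in every step. At 1.5 to 2 Mb it was 62.1, 24.7 and 32.3 per Mb, and at 2 to 3 Mb it was 60.4, 20.7 and 31.3, so replicate 2 fell more across the 2 Mb limit than the other replicates did. By 6 to 8 Mb it was 44.3, 13.9 and 23.1, at 8 to 10 Mb it was 51.4, 13.9 and 27.6, and at 15 to 20 Mb it was 42.5, 10.3 and 23.8 per Mb. Replicates 1 and 3 thus rose again between 6 and 10 Mb.

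**Figure D1:**
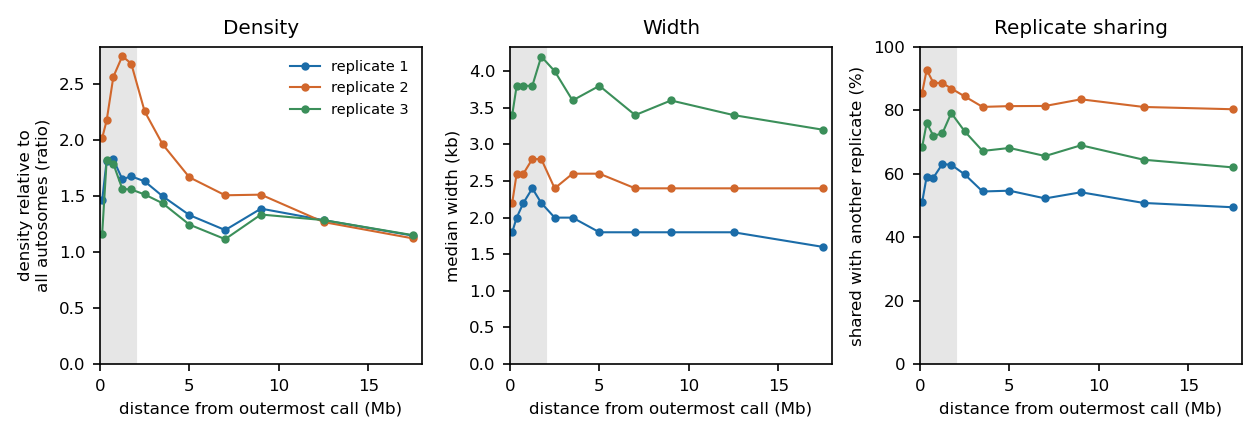
Common regions of the 39 ends by distance from the outermost call in Mb, for 3 replicates, with the 2 Mb end zone shaded. Left, density divided by the autosomal density of the replicate (37.1, 9.21 and 20.7 per Mb); middle, median width in kb; right, percentage that overlapped a common region of another replicate. In all 3 replicates density in the outermost 0.25 Mb was below that of the next step inward, and all 3 measures were lower at 6 to 8 Mb than at 1 to 2 Mb.

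Common regions of the ends were also somewhat wider. Their median width was 2200 bases in replicate 1, 2600 in replicate 2 and 3800 in replicate 3, against 1800, 2400 and 3600 bases inward. The ends were wider in each replicate, by 400, 200 and 200 bases, a mean of 267 ± 115 bases (SD, n = 3; exact sign-flip permutation p = 0.25, two-sided). EPIC2 regions were called on a grid of 200 bases, so the difference in replicates 2 and 3 was 1 grid step. Over all EPIC2 regions, with or without a summit, the medians differed by 200, 0 and 0 bases, a mean of 66.7.

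The upper part of the width distribution carried more of the difference than its centre. Mean widths exceeded the inward means by 678, 407 and 537 bases. Regions of 10 kb or wider made up 4.71%, 3.31% and 10.6% of common regions at the ends, that is 231, 60 and 273 regions, and 2.02%, 1.54% and 8.97% inward. Their share over all autosomes was not computed. The tenth percentile of width was 600, 1000 and 1800 bases at the ends and 600, 1000 and 1600 inward, the same in replicates 1 and 2 and 1 grid step wider at the ends in replicate 3. Summits per common region averaged 1.39, 1.16 and 1.36 at the ends and 1.28, 1.12 and 1.31 inward. With more and wider regions, common regions covered 20.5%, 7.91% and 18.02% of the end zones, against 13.1%, 4.69% and 13.1% of the inward zones.

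A larger share of regions at the ends was called again in another replicate. A common region was counted as shared when it overlapped a common region of at least 1 other replicate by at least 1 base. At the ends this held for 2947 of 4907 regions in replicate 1 (60.1%), 1599 of 1810 in replicate 2 (88.3%) and 1916 of 2583 in replicate 3 (74.2%). Over all autosomes the shares were 48.6%, 79.3% and 60.9%, and in the inward zones 54.8%, 82.3% and 68.5%. The ends were above both in each replicate, and the shortest list, replicate 2, had the highest shares and the longest, replicate 1, the lowest. The ends exceeded the inward zones by 5.30, 6.02 and 5.71 percentage points, a mean of 5.68 ± 0.363 (SD, n = 3; exact sign-flip permutation p = 0.25, two-sided). Each of these 3 values uses the lists of all 3 replicates, and an overlap of 2 replicates counts in both. They are not independent, so neither their SD nor this p measures the spread between separate replicates. With regions compared within 3 classes of width, the excess was 2.60, 5.60 and 4.78 points, and it was found for narrow, middle and wide regions of every replicate. With summits in place of regions it was 1.97 points.

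Sharing is easier where more sequence is called, and the coverage of the ends was higher. The share of region midpoints found in the other replicate was therefore divided by the share of the zone that replicate covered. This ratio was lower at the ends, although the share of midpoints itself was higher. In replicate 2, 71.5% of end midpoints lay in a common region of replicate 1, which covered 20.5% of the ends, a ratio of 3.49. Inward, 61.5% of midpoints lay in regions covering 13.1%, a ratio of 4.70. Averaged over the other replicates, this ratio was 2.50, 2.75 and 2.28 at the ends of replicates 1, 2 and 3 and 3.34, 3.62 and 2.83 inward. It was lower at the ends in 3 of 3 replicates, with a mean difference of -0.756 ± 0.172 (SD, n = 3; exact sign-flip permutation p = 0.25, two-sided). These values also draw on all 3 lists and are not independent. This ratio cannot exceed the inverse of the covered share, which is lower at the ends, so higher coverage limits it by construction. It therefore cannot decide whether sharing beyond coverage was lower at the ends. Other ways of setting sharing against coverage were not computed. Without replicate 1 the mean difference in this ratio was -0.466.

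**Figure D2:**
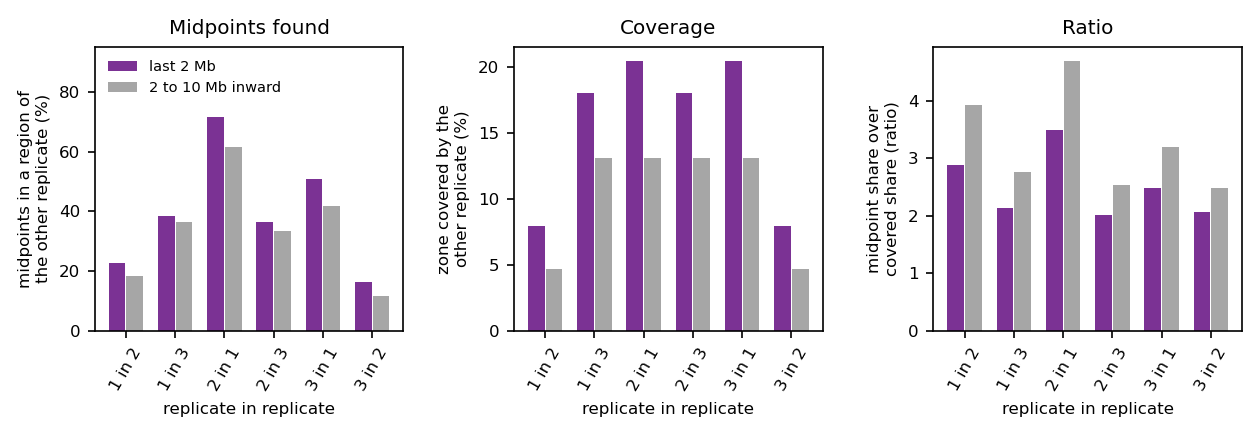
Sharing in the 6 directed pairs of replicates, in the last 2 Mb (purple) and 2 to 10 Mb inward (grey). Left, percentage of common region midpoints that lay in a common region of the other replicate; middle, percentage of the zone that the other replicate covered; right, the ratio of these shares. The purple bar is higher in all 6 pairs on the left and in the middle and lower in all 6 on the right, for example 3.49 against 4.70 for replicate 2 in replicate 1.

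Agreement between the callers differed from that inward by less than the spread between replicates. An EPIC2 region of the ends held a summit in 4907 of 6330 cases in replicate 1 (77.5%), 1810 of 2957 in replicate 2 (61.2%) and 2583 of 3714 in replicate 3 (69.5%). The autosomal shares were 81.6%, 56.7% and 71.7%, and the inward shares 79.0%, 57.3% and 68.8%. The ends were thus below the autosomes in replicates 1 and 3 and above in replicate 2. The difference from the inward zones was -1.48, 3.95 and 0.783 points, a mean of 1.08 ± 2.73 (SD, n = 3; exact sign-flip permutation p = 0.75, two-sided), and it was -0.351 without replicate 2. Read the other way, 75.9%, 61.6% and 60.9% of summits at the ends lay in an EPIC2 region, against 66.4%, 55.8% and 52.4% inward, an excess of 7.93 ± 1.96 points that was present in 3 of 3 replicates. EPIC2 regions were also denser at the ends, at 81.2, 37.9 and 47.6 per Mb against 64.2, 27.3 and 38.9 inward. Denser regions make it easier for a summit to lie in one. This excess was not set against coverage, and the autosomal share was not computed.

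The scores of the callers differed in direction. The highest summit score of a common region, -log10 of the q-value, was ranked within its replicate over the autosomes. The median percentile at the ends was 47.5, 54.0 and 41.8 and inward 47.8, 51.2 and 46.9. The ends were lower in replicates 1 and 3 and higher in replicate 2, and the mean difference of -0.887 ± 3.95 points was smaller than its spread (n = 3; exact sign-flip permutation p = 0.75, two-sided). The EPIC2 score of the same regions, whose kind is not stated, had median percentiles of 67.7, 62.7 and 62.9 at the ends and 58.2, 56.3 and 58.4 inward. That score was higher at the ends in 3 of 3 replicates, by 6.80 ± 2.47 points.

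The 39 ends were far from alike. Each density was divided by the autosomal density of its replicate, and the mean of this relative density over replicates ranged from 0.0811 to 4.47 with a median of 1.92. Over ends its SD was 1.14, while the SD between replicates had a median of 0.472. The order of the ends was similar in the 3 lists, with Spearman's rho of 0.92 between replicates 1 and 2, 0.93 between 1 and 3 and 0.84 between 2 and 3. These are descriptions over 39 positions of 1 genome in 1 cell line. In every replicate 24 ends were above the autosomal density and 9 were below it (6p, 6q, 9p, 18p, 4q, 1q, 2p, 10q and 3p). The share of other autosomal windows above that density is not given here, so these counts have no background. The 10 densest ends held 39.7%, 49.5% and 43.8% of all common regions at ends.

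The 5 densest ends by mean were 19p, 17q, 16q, 11p and 9q. The 19p end held 217, 131 and 140 common regions in replicates 1, 2 and 3, a mean of 81.3 ± 23.6 per Mb. The 17q end held 183, 128 and 123, a mean of 72.3 ± 16.6 per Mb, and 16q held 189, 104 and 135, a mean of 71.3 per Mb. The 11p end held 207, 95 and 94 and the 9q end 196, 82 and 118 common regions, each a mean of 66.0 per Mb. The next end, 7p, was at 65.8 per Mb, so its place behind 11p and 9q lay well within the spread between replicates. Means per Mb are weighted towards the longest list, that of replicate 1. By mean relative density 8q, at 3.56, stood ahead of 11p at 3.40 and 9q at 3.31, so 4 of these 5 ends stayed among the 5 highest. Parts of chromosomes 16 and 17 are among those known to be gained in HCT116, and the part of copy number in this order was not tested.

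At the sparse end of the order stood 4q, 1q, 2p, 10q and 3p. The 4q end held 47, 9 and 30 common regions in replicates 1, 2 and 3, a mean of 14.3 per Mb that 18p equalled with 50, 6 and 30. The 1q end held 48, 15 and 16, and 2p held 49, 17 and 12. The lowest counts were at 10q, with 33, 5 and 0, and at 3p, with 10, 2 and 0 common regions. Their mean densities of 6.33 and 2.00 per Mb were below those of all other ends. By mean relative density 3 of these 5 stayed among the 5 lowest, since 18p at 0.574 and 9p at 0.592 took the places of 1q and 2p.

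**Figure D3:**
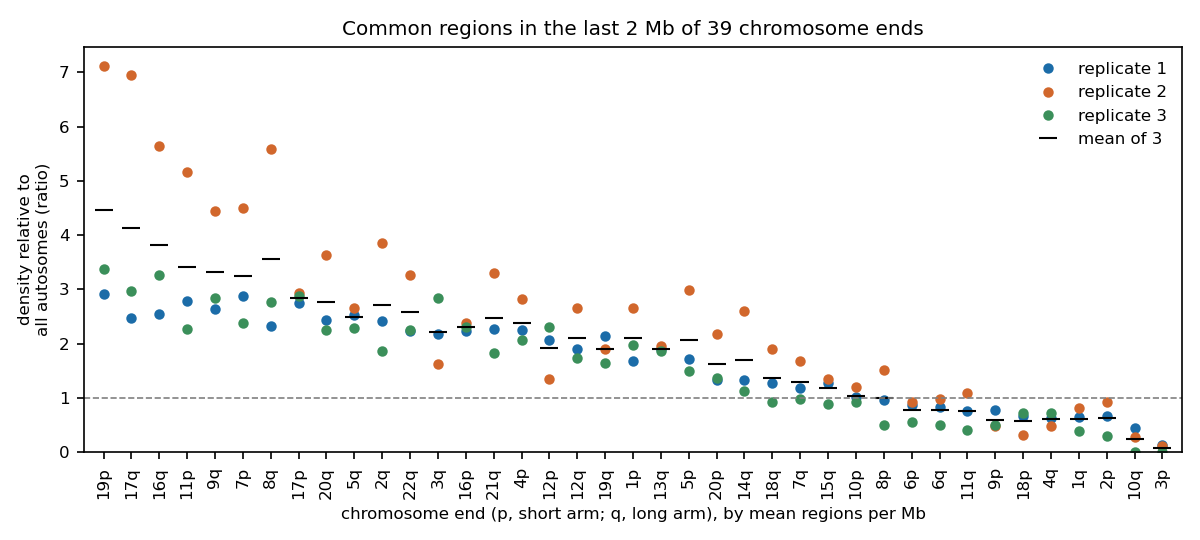
Density of common regions in the last 2 Mb of each of the 39 ends, divided by the density over all autosomes of the same replicate. Points are the 3 replicates, short lines their mean and the dashed line the autosomal level of 1; ends run from the highest mean density per Mb, 19p, to the lowest, 3p. Replicate 2 lies above the other replicates at most dense ends, and 9 ends lie below 1 in all replicates.

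A dense end was not always a local peak. The end was denser than its own inward zone in every replicate at 22 ends, 13 q and 9 p, less dense in every replicate at 4 ends (19q, 18p, 10q and 3p), and mixed at 13. Counted by replicate, 26, 33 and 26 of the 39 ends were denser. No matching count for other parts of the chromosomes is given here. The densities of end and inward zone were related across the 39 ends, with Spearman's rho of 0.65, 0.66 and 0.66 in replicates 1, 2 and 3. At 19p the inward zone held 104, 43.3 and 62.3 common regions per Mb, and the end exceeded it by ratios of 1.04, 1.51 and 1.12. At 17q the ratio was 0.848, 1.29 and 0.911, so the second densest end was not above its flank in replicates 1 and 3. Among windows of 2 Mb on its own chromosome, an end was the densest in 2, 12 and 1 cases, in no case in all 3 replicates. At 8 ends it was among the 5 densest windows in every replicate. The number of windows ran from 17 on chromosome 22 to 124 on chromosome 1, so a high rank is easier to reach on short chromosomes. These counts were not set against the share of windows that would hold such a rank.

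Among ends denser than their flank, the highest mean ratios of end to inward density were at 5p, 13q, 18q and 20q. These ends are named here after their values were seen, as are all ends outside the densest and sparsest 5. The 5p end held 128, 55 and 62 common regions in replicates 1, 2 and 3, or 64.0, 27.5 and 31.0 per Mb, against 13.5, 5.13 and 1.88 per Mb inward. Its ratio was 4.74, 5.37 and 16.5, the last resting on few inward regions. In steps of 1 Mb the counts at 5p went from 73, 38 and 37 at 1 to 2 Mb to 17, 8 and 2 at 2 to 3 Mb. At 13q the end held 141, 36 and 77 common regions and its ratio was 3.40, 2.67 and 5.81. The ratios of 18q were 2.75, 3.41 and 2.71 and those of 20q 2.55, 2.65 and 3.32. These 4 ends were above their flanks by at least 2.55-fold in each replicate, yet none was among the 5 densest. At 11p, the only end of those 5 with a ratio that high in any replicate, it was 2.11, 4.04 and 1.87.

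The 10q end had the opposite profile. Its last 4 steps of 1 Mb held 21, 12, 3 and 2 common regions in replicate 1, 4, 1, 1 and 0 in replicate 2, and 0 in replicate 3. The next step, 4 to 5 Mb inward, held 44, 26 and 24, and the step at 9 to 10 Mb held 104, 40 and 67. Parts of chromosome 10 are known to be gained in HCT116, and the part of copy number in this profile was not tested. In replicate 3 the outermost common region lay 4084775 bases from the last call. Summits were still called in the last 2 Mb of 10q, 99, 37 and 16 in the 3 replicates. At 3p the last 2 Mb held 65, 17 and 20 summits but 10, 3 and 1 EPIC2 regions, and no step up to 9 Mb held more than 33, 7 and 20 common regions, before 108, 23 and 54 at 9 to 10 Mb.

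**Figure D4:**
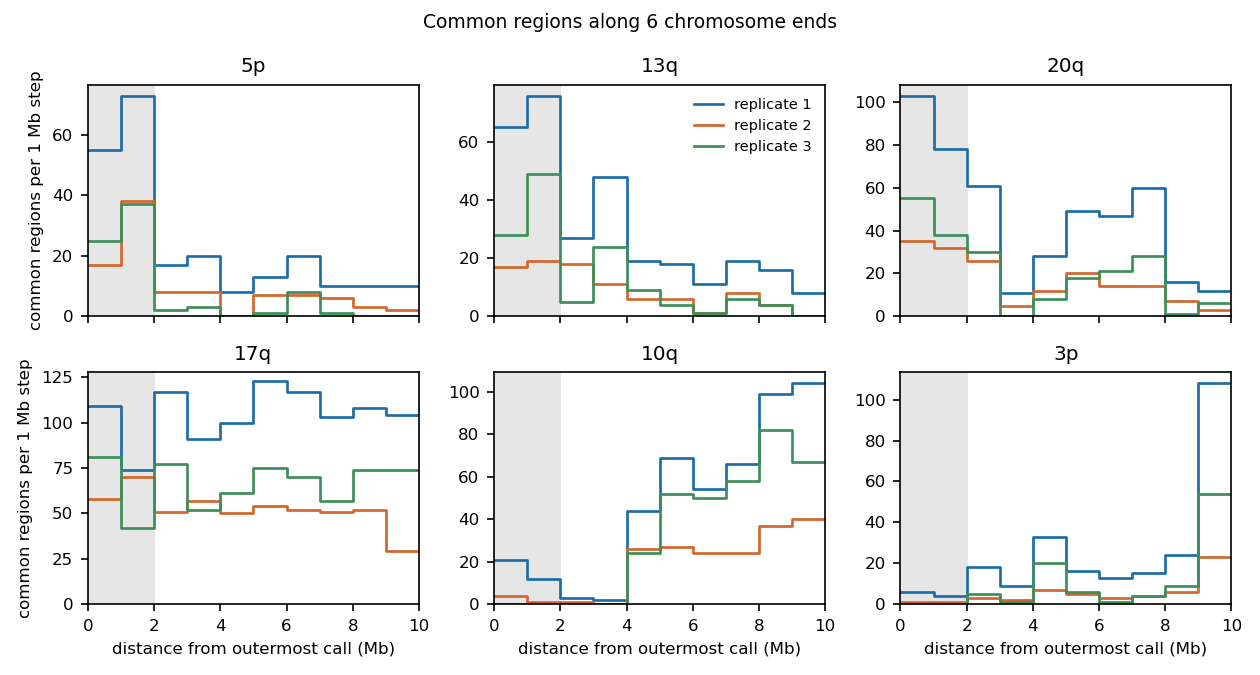
Common regions per step of 1 Mb against distance from the outermost call, for 6 ends and 3 replicates, with the 2 Mb end zone shaded. Counts drop at 2 Mb at 5p (73, 38 and 37 in the step before, 17, 8 and 2 after), stay high throughout at 17q, and rise only beyond 4 Mb at 10q and at 9 Mb at 3p; vertical scales differ between panels.

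Sharing between replicates varied among the ends along with density. In replicate 1, over the 38 ends with at least 20 common regions, the shared percentage ran from 9.09 to 94.0 with a median of 52.4. It was 94.0% at 17q, 90.2% at 8q, 88.4% at 16q and 87.6% at 19p, and 9.09% at 10q, where 33 regions were called. In replicate 2 the range over 30 such ends was 50% to 100%, the highest at 8q, and in replicate 3 over 34 ends it was 40% to 93.0%, again highest at 8q. Spearman's rho of density and sharing over these ends was 0.83, 0.77 and 0.77. Density and sharing use the same calls, and more calls in an end make overlap easier, so these values are descriptions only. Single ends departed from the trend. In replicate 1, 7p, 11p and 17p held 106.5, 103.5 and 102 common regions per Mb, above 8q at 86.5 and 17q at 91.5. Yet 63.4%, 64.7% and 63.2% of their regions were shared. Parts of chromosomes 8, 16 and 17 are known to be gained in HCT116, and the part of copy number in sharing was not tested.

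Common regions of at least 2 replicates were merged into consensus origins where they overlapped. The ends held 2306 of 41995 autosomal consensus origins, or 5.49%, which is 29.6 per Mb against 22.1 per Mb inward and 15.4 per Mb over the autosomes. All 3 replicates contributed to 642 of the 2306 (27.8%), against 24.7% inward and 19.1% over the autosomes. The median width of consensus origins at the ends was 5000 bases, against 4800 inward and 4000 over the autosomes, and the median gap to the next was 7600 bases, against 10000 and 13600. Higher coverage at the ends makes overlap and merging easier, and these shares and widths were not set against coverage. Replicate 1 took part in 98.7% of those at the ends, replicate 2 in 56.7% and replicate 3 in 72.5%, so the set leans on replicate 1. Without replicate 1 the ends held 680 consensus origins, and without replicate 3 they held 1379. The number per end ran from 1 at 3p and 3 at 10q to 114 at 19p, and 37 ends had at least 1 origin of all 3 replicates, the exceptions being 10q and 3p. At 19p 64 of the 114 were of all 3 replicates, at 16q 53 of 96 and at 8q 47 of 89, while at 7p it was 26 of 106.

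Of the 5 strongest subtelomeric consensus origins of all 3 replicates, ranked by the mean percentile of their highest summit score, 4 lay at the 8q end and 1 at 16q. Parts of chromosomes 8 and 16 are known to be gained in HCT116, and the part of copy number in these scores was not tested. The strongest, chr8:145227201-145269600, was 42400 bases wide and had summit scores (-log10 q) of 43.2, 47.8 and 20.7 in replicates 1, 2 and 3. These scores lay at percentiles 99.7, 98.8 and 99.6 of their replicates, and the region held 9, 6 and 5 summits. The second, chr8:144979401-145091600, had scores of 23.2, 53.5 and 17.8. The others were chr8:145685801-145740400 with 76.5, 48.1 and 12.3, chr16:89928201-89945400 at the 16q end with 51.3, 47.7 and 11.5, and chr8:144321601-144337600 with 40.3, 28.6 and 13.5. Scores of different replicates are on scales that may differ, so only the percentiles can be set side by side. The score used is the highest of all summits in an origin, so the ranking favours wide origins with many summits. Common regions at the ends averaged 1.39, 1.16 and 1.36 summits in replicates 1, 2 and 3.

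The widest of these origins were clusters of many summits at 17q and 8q. At 17q, chr17:79944601-80105600 spanned 161000 bases and was the widest consensus origin on the autosomes, with 33, 17 and 15 summits in replicates 1, 2 and 3. Common regions of the single replicates within it added up to 148000, 105400 and 129800 bases. The next, chr8:144979401-145091600, was 112200 bases wide with 33, 15 and 13 summits and was also the second strongest. The third, chr17:80423401-80529800, was 106400 bases wide, and here replicate 2 covered 36800 bases, against 92400 in replicate 1 and 96200 in replicate 3. Its mean score percentile of 72.7 was below those of the other wide origins, 95.2 and 98.2.

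Consensus origins of all 3 replicates reached the outermost called position at 12p, 16q and 17q, as merged regions. At 12p the region chr12:82601-85000 began at the first called position, was 2400 bases wide and had scores of 10.4, 8.17 and 6.89, and here the common region of each replicate lay at that position. At 16q chr16:90145201-90151400 ended at the last call and had scores of 19.02, 2.45 and 2.15, which lay at percentiles 93.1, 12.7 and 5.94, so it was strong in replicate 1 and weak in the others. At 17q chr17:81097401-81110200, 12800 bases wide, also ended at the last call, with scores of 11.01, 3.99 and 6.45. At 1p, in contrast, the outermost common regions began 813498, 760098 and 824098 bases from the first call.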

How the data were processed

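Per the study's methods and the submitters' processing notes, the authors aligned SNS-seq reads of 3 untreated HCT116 replicates to hg19 with Bowtie2 2.3.4.2, removed duplicates with Picard 2.18.17, and called each replicate separately with MACS2 2.1.0.20151222 (q = 0.1) and EPIC2 (FDR = 0.1). No source used here names a control library. Each EPIC2 list the authors deposited gives regions with a score of unstated kind, of which only the rank within its replicate was used. In the deposited summit lists from MACS2 each single base has a value of -log10 of the q-value. Read numbers are not in these lists, so precision from depth could not be computed, and zones of different sequence content may differ in how easily calls are made.

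Zones, common regions (EPIC2 regions holding a summit), overlaps of at least 1 base and consensus origins of at least 2 replicates were computed with Python 3.11.15, numpy 2.4.6 and scipy 1.17.1. EPIC2 widths include the end base. Each replicate gave a value per zone, and end and inward values were compared by an exact two-sided sign-flip permutation test over the 3 replicates. Density ratios were tested on a logarithmic scale. Values of sharing also used the lists of the other replicates. The functions were tested on simulated lists. Named were the 5 densest and 5 sparsest ends, and, among subtelomeric consensus origins of all 3 replicates, the 5 strongest, the 3 widest and the 3 outermost. The members and lists were chosen with earlier results of these data known. Alternatives covered zone depth, unit, stricter q, EPIC2 score, overlap rule, equal numbers per replicate, gained chromosomes and each replicate left out. Sex chromosomes, mitochondrial DNA and unplaced contigs were left out. The reference at hand was GRCh38, another build than that of the files, so its sequence and genes were not used.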

Additional observations from a re-analysis of the deposited data

How the results depend on the processing

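Of 97 values recomputed under alternatives, 67 kept their direction and moved by less than the SD between replicates, or, for counts, by less than 1.5 times. This tally is a weak measure of stability. For density and width, leaving out 1 replicate only averages the remaining values, which cannot move by as much as the SD. For caller agreement and score the SD exceeded the size of the mean, so the limit was wide. Density relative to the inward zone moved to 1.47 with equal numbers of regions per replicate and ran from 1.24 to 1.36 with 1 replicate left out. Relative to the whole chromosome that range was 1.49 to 1.85, and no alternative moved it beyond its spread. The sharing difference of 5.68 points was 4.62 for all EPIC2 regions, 4.40 and 5.10 for ends of 1 and 5 Mb, 6.45 with equal numbers, 7.48 for midpoints, 5.07 for a reciprocal overlap of 50%, 1.97 for summits, 4.32 within width classes, 6.40 without chromosomes 8, 10, 16 and 17, and 4.48 to 6.31 with 1 replicate left out. Sharing over coverage was -0.575 for ends of 1 Mb, -1.38 with equal numbers and -1.13 to -0.466 with 1 replicate left out. The width difference was 66.7 bases for all EPIC2 regions, 133 for ends of 1 Mb, 541 for mean widths and 200 to 300 with 1 replicate left out. Caller agreement was 7.93 points as the share of summits in a region and changed sign to -0.739 without chromosomes 8, 10, 16 and 17, with -0.351 to 2.37 when 1 replicate was left out. The score difference changed sign to 6.80 for the EPIC2 score and 0.271 for ends of 1 Mb, with -2.71 to 1.21 when 1 replicate was left out. Consensus origins numbered 642 with all 3 replicates required, 1307 with equal numbers, 1437 with a reciprocal overlap of 50%, and 680 to 1658 with 1 replicate left out. The cause of these changes was not tested. Zones measured from the outermost EPIC2 region, and every alternative to the count of 22 ends above their flank, which stayed between 23 and 25, were chosen after seeing the data. With 1 replicate left out that count could not fall, since fewer replicates had to agree. Each comparison set zones of the same replicate against each other, and there was no second group to pair. The sign-flip test could not go below 0.25, and without read numbers a sparse end cannot be told apart from one with few placed reads.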

Other observations

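The first 2 Mb of called sequence on chromosomes 13, 14, 15, 21 and 22 was left out of the ends above. It lies beside the centromere gap, not at a chromosome end, with first calls from position 9438369 on chromosome 21 to 20009923 on chromosome 15. These zones held 328, 81 and 208 common regions in replicates 1, 2 and 3, or 32.8, 8.1 and 20.8 per Mb. That was below the ends in every replicate (62.9, 23.2 and 33.1 per Mb), below the autosomal densities of 37.1 and 9.21 per Mb in replicates 1 and 2, and close to the 20.7 per Mb of replicate 3. Single chromosomes held between 16 and 128 in replicate 1, between 10 and 24 in replicate 2 and between 10 and 83 in replicate 3.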
